A study of Mus musculus with 2 samples.

Results

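Chaperones are proteins that help other proteins fold, and the unfolded protein response is the program that adjusts them in the endoplasmic reticulum (ER). The 43 listed genes of this module were matched by symbol to the 31056 gene rows of the count matrices, and 42 were found. Cct6a was not analysed here. The members fell into 12 cytosolic heat shock genes, 4 mitochondrial chaperones, 7 subunits of the cytosolic CCT ring and 19 genes of the ER. The cells came from healthy female Mycfl/flFoxp3Cre/WT mice, in which regulatory T (Treg) cells that have lost Myc and Treg cells that keep it live side by side, because the Foxp3-driven Cre sits on 1 X chromosome. CD4+ CD25+ cells, both YFP+ and YFP-, were sorted, and 1 single-cell 3′ library was made from the spleen and 1 from the lymph node. No label assigns a cell to an animal or to YFP+ or YFP-, so Myc-deficient and Myc-sufficient cells were pooled in every value, and no group was free of the floxed Myc allele or of Foxp3Cre. The labels state neither the age of the mice, nor how many were pooled, nor which part of Myc is floxed, and a Myc UMI therefore does not tell the genotypes apart.

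Cytosolic chaperones of the Hsp70 and Hsp90 families bind unfolded stretches of protein and release them in cycles of ATP hydrolysis, helped by J-domain proteins and nucleotide exchange factors, and the factor HSF1 raises the inducible ones after heat or proteotoxic stress. The CCT ring (also called TRiC) folds actin and tubulin in a closed chamber, and Hsp60 with its lid Hsp10 does the like in the mitochondrial matrix. In the ER, BiP, GRP94, the lectin chaperones calreticulin and calnexin, and the disulfide isomerases fold secreted and membrane proteins, and the sensors IRE1, ATF6 and PERK raise them when unfolded protein builds up. IRE1 acts by splicing the Xbp1 mRNA. A 3′ count does not separate spliced from unspliced Xbp1.

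Promoter windows of 35 of the 42 members were found in RefSeq on GRCm38.p6, each running from 250 bases before to 50 bases after the annotated start. They are shown because the compartments differ in the elements their windows hold. The heat shock element was searched as GAANNTTC or TTCNNGAA and the ER stress element as CCAAT, any 9 bases and CCACG, on both strands. A gene with more than 1 annotated start had a window for each, and counted once if any of them held the element. By that count a heat shock element was found for 6 of 8 cytosolic genes (Hspa1a, Hspa1b, Hsph1, Dnaja1, Hspb1 and Bag3) and 2 of 3 mitochondrial genes (Hspd1 and Hspe1). It was found for 2 of 6 CCT genes (Cct2 and Cct5), 1 of 18 ER genes (Ssr1) and 17.0% of all 27025 genes. The ER stress element was found for 7 of 18 ER genes (Hspa5, Hsp90b1, Calr, Canx, Pdia6, Dnajc3 and Creld2), 0 of the 17 other members and 0.137% of all genes. The sequences below are read on the strand of the gene, with the matched letters in capitals.
Hspa5 (BiP; chr2:34771840-34772139, plus strand; 1 ER stress element): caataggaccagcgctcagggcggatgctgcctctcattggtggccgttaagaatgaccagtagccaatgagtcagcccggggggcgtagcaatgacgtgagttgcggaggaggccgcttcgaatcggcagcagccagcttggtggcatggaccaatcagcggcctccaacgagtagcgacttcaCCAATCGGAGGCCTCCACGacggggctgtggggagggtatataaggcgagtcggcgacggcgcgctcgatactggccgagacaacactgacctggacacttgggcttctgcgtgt
Hsp90b1 (GRP94; chr10:86705395-86705694, minus strand; 2 ER stress elements): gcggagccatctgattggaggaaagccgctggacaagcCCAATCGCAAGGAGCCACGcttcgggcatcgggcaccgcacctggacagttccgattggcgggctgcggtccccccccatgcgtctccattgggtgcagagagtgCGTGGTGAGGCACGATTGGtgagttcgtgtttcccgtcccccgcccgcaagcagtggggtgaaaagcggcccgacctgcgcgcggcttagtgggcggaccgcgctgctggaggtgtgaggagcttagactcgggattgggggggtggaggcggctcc
Hspe1 (Hsp10; chr1:55087898-55088197, plus strand; 3 overlapping heat shock elements): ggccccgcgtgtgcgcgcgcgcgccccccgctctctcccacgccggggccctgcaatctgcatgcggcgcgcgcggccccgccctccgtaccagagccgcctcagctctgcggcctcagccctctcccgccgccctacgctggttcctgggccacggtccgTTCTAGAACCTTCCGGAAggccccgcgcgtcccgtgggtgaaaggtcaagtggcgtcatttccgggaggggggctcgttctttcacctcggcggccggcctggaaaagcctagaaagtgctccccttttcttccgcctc
Hspa1a (inducible Hsp70; chr17:34972107-34972406, minus strand; 1 heat shock element): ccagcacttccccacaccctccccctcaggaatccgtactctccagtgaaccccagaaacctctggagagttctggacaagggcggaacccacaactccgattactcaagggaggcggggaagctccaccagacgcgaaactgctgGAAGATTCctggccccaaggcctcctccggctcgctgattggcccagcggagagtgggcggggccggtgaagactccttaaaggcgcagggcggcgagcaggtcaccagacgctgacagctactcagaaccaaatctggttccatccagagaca
The first ER stress element of Hsp90b1 reads CCAAT to CCACG, and the other lies on the opposite strand. Hspe1 and Hspd1, which encodes Hsp60, lie head to head on chromosome 1. A window of Hspd1 overlaps that of Hspe1, and both hold the same heat shock elements on opposite strands. The window of Sdf2l1, an ER member that differs widely between gates below, holds neither element. A match is a description of the letters and not a measured binding site.

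The spleen library held 6840 barcodes with 16868549 UMIs (unique molecular identifiers, each a counted mRNA molecule), and the lymph node library held 5079 barcodes with 13324306 UMIs. After cells with fewer than 500 genes or over 10% mitochondrial UMIs were left out, 6543 spleen cells (median 1935 UMIs) and 4820 lymph node cells (median 2031 UMIs) remained. Of these, 45 barcodes were kept in both libraries. T cell markers summed to 4223 CPM (UMIs of a gene per 1000000 UMIs) in the spleen and 4115 CPM in the lymph node, and Treg markers to 1638 and 1558 CPM, with none of the 11 marker genes at 0 in either library. Markers of other cells were present: B cell markers summed to 174 CPM in the spleen and 244 CPM in the lymph node, and erythroid markers to 0.961 and 327 CPM. Cells with 3 or more UMIs of another type's markers made up 5.52% of spleen cells and 5.68% of lymph node cells. With 1 library per tissue and cells that are not replicates, no test was possible: intervals given after a ratio are exact 95% intervals that cover counting error only, and differences between animals were not measured.

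Hspa8 and Hsp90ab1 were detected in most cells, and Hspa1a, Hspa1b, Hspb1 and Bag3 were almost silent. Hspa1a and Hspa1b, the classical heat-inducible Hsp70 genes, had 5 and 0 UMIs in the spleen library and 1 and 0 UMIs in the lymph node library, and the exact upper limits for Hspa1b were 0.222 and 0.283 CPM. Hspb1 (Hsp27) had 3.55 CPM in the spleen and 2.14 CPM in the lymph node, and Bag3, a co-chaperone of selective autophagy, had 2.46 and 2.68 CPM. These 4 members fell below 20 CPM in both libraries and enter no count or median below. Hsph1 (Hsp105), at 20.2 CPM in the spleen and 19.8 CPM in the lymph node, lay just at that limit, and Hsf1, at 32.0 and 28.0 CPM, above it. When each cell was thinned to 1200 UMIs, Hspa8, the constitutive Hsc70, was detected in 76.2% of spleen and 72.6% of lymph node cells, and Hsp90ab1, the constitutive Hsp90, in 60.3% and 58.1%. Levels of different genes are not ranked, since a 3′ UMI count also depends on how well each 3′ end is captured and on sequence shared with other loci: 64.0% of the 90-base words in the last 400 bases of Hspa8 recur in another annotated gene, as do 43.2% for Dnaja1, 37.9% for Hspe1, 27.2% for Hspb1, 23.1% for Hsp90aa1, 21.3% for Hspd1 and 15.5% for Sec61b, so the counts of these 7 genes are uncertain.

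Per cell at 1200 UMIs, the members together gave a mean of 8.61 UMIs in the spleen and 8.18 UMIs in the lymph node. The variance over the mean of those UMIs differed between compartments, and so did the mean. In the spleen the mean was 3.65 UMIs for cytosolic, 2.67 for ER, 1.63 for CCT and 0.657 for mitochondrial genes. The variance over the mean can rise with the mean, so these values do not rank the compartments by how evenly cells shared the UMIs. For the CCT ring the variance over the mean was 1.11 in the spleen and 1.13 in the lymph node, where 1 is the value of pure counting. It was 1.75 and 1.69 for the cytosolic heat shock genes, 1.501 and 1.42 for the ER genes and 1.30 and 1.20 for the mitochondrial chaperones. Across cells, cytosolic and mitochondrial UMIs correlated with Pearson's r = 0.263 over 6018 spleen cells (Spearman's rho = 0.128), which is weak in counts this sparse and shares 1 library and 1 thinned depth.

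**Figure D1:**
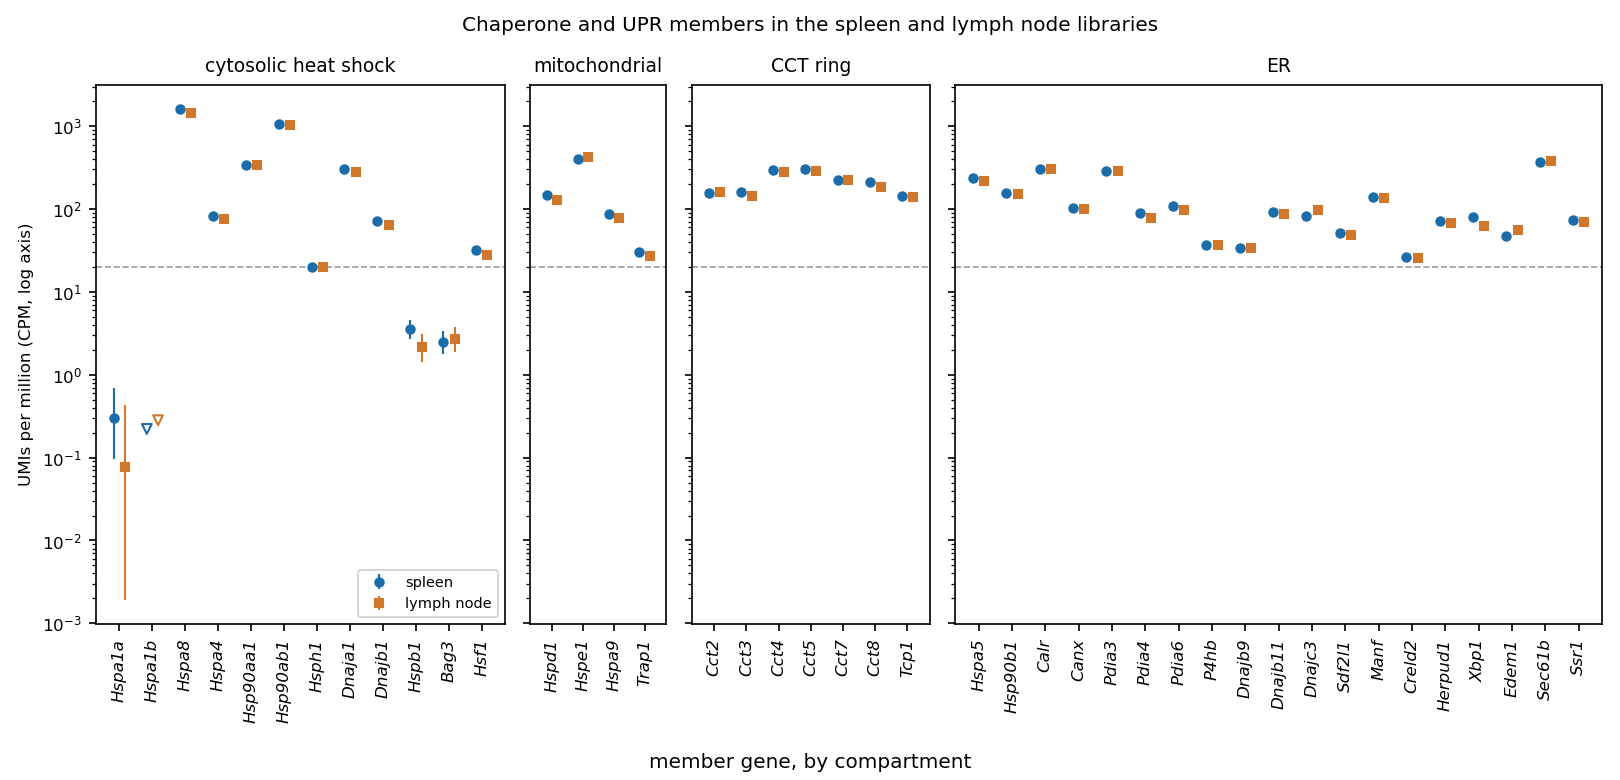
CPM (log axis, 95% counting intervals) of the members in the spleen and lymph node libraries, by compartment. The paired points nearly coincide for most genes, while Hspa1a, Hspb1 and Bag3 lie far below the rest.

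Chaperone mRNA was slightly higher in the spleen than in the lymph node library, and the clearest single difference was in Xbp1, the transcription factor that IRE1 activates. Xbp1 had 80.3 CPM in the spleen and 62.8 CPM in the lymph node (ratio 1.28, 1.17 to 1.40). The cytosolic heat shock genes summed to 3519 CPM in the spleen and 3275 CPM in the lymph node (ratio 1.07, 1.06 to 1.09), the CCT ring to 1500 and 1415 CPM (ratio 1.06, 1.04 to 1.08), and the ER genes to 2388 and 2334 CPM (ratio 1.02, 1.01 to 1.04). The mitochondrial chaperones, at 664 CPM in the spleen and 654 CPM in the lymph node (ratio 1.02, 0.987 to 1.05), were not separated at this depth. Of 38 members at or above 20 CPM, 31 were higher in the spleen and 7 lower, and 0 passed 1.5-fold in either direction, beside 0.713% of 5048 genes passing it upwards and 0.872% downwards. Their median log2 ratio was 0.07, against 0.016 over all 5048 genes.

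Within compartments the members did not move as 1 block. The CCT subunits Cct8, with 210.0 CPM in the spleen and 182 CPM in the lymph node (ratio 1.15, 1.09 to 1.21), and Cct3, with 162 CPM in the spleen and 142 CPM in the lymph node (ratio 1.13, 1.07 to 1.20), were higher in the spleen. Hspa8 had 1589.6 CPM in the spleen and 1441 CPM in the lymph node (ratio 1.10, 1.08 to 1.12) and the disulfide isomerase Pdia4 88.9 CPM in the spleen and 77.4 CPM in the lymph node (ratio 1.15, 1.06 to 1.245). The parts of the mitochondrial chaperonin lay on opposite sides: Hspd1 had 147 CPM in the spleen and 129 CPM in the lymph node (ratio 1.13, 1.06 to 1.21), whereas its partner Hspe1 had 401 CPM in the spleen and 420.1 CPM in the lymph node (ratio 0.954, 0.921 to 0.989). The Hspe1 difference was small, and its log2 ratio changed sign, to 0.017, without cells that carried another type's markers. In the ER, Dnajc3 (P58IPK), an inhibitor of PERK, had 83.3 CPM in the spleen and 98.3 CPM in the lymph node (ratio 0.848, 0.785 to 0.916), and Edem1, which directs misfolded glycoproteins to degradation, had 47.3 CPM in the spleen and 55.8 CPM in the lymph node (ratio 0.847, 0.765 to 0.938). Both were lower in the spleen, as was the translocon subunit Sec61b (365 CPM in the spleen and 380.0 CPM in the lymph node, ratio 0.961, 0.926 to 0.998). Hspa5 had 236 CPM in the spleen and 216 CPM in the lymph node (ratio 1.09, 1.04 to 1.15), Hsp90ab1 1072 CPM in the spleen and 1024 CPM in the lymph node (ratio 1.05, 1.02 to 1.07), Cct5 308 CPM in the spleen and 286 CPM in the lymph node (ratio 1.08, 1.03 to 1.12), and Calr, with 302 CPM in the spleen and 303 CPM in the lymph node (ratio 0.994, 0.954 to 1.04), was level between the libraries. Cycling markers summed to 97.7 CPM in the spleen and 151 CPM in the lymph node; their part in these differences was not tested. Among the members not yet named, the ratios were 1.10 for Hspa4, 1.01 for Hsp90aa1, 1.08 for Dnaja1, 1.12 for Dnajb1, 1.12 for Hspa9, 1.12 for Trap1, 0.980 for Cct2, 1.05 for Cct4, 1.01 for Cct7 and 1.03 for Tcp1. In the ER they were 1.04 for Hsp90b1, 1.03 for Canx, 1.002 for Pdia3, 1.14 for Pdia6, 1.005 for P4hb, 0.982 for Dnajb9, 1.08 for Dnajb11, 1.04 for Sdf2l1, 1.03 for Manf, 1.03 for Creld2, 1.06 for Herpud1 and 1.07 for Ssr1. All of these lay between the ratios of Edem1 and Xbp1. With every cell that carried another type's markers left out, the median over the members was 0.092.

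Chaperone shares depended on how many UMIs a cell held, which bears on every gate below, because a cell with more UMIs is also more likely to show 1 UMI of a gate gene. In 4 equal groups of cells, from the fewest to the most UMIs per cell, the mitochondrial chaperones summed to 419, 463, 549.8 and 854 CPM in the spleen and 444, 462, 539 and 824 CPM in the lymph node. The cytosolic heat shock genes summed to 2695, 2792, 2985 and 4251 CPM in the spleen and 2532, 2656, 2696 and 3942 CPM in the lymph node. Both thus took a larger share of the UMIs in deeper cells. The CCT ring, at 1199, 1295, 1342 and 1728 CPM in the spleen and 1165, 1215, 1193 and 1650.0 CPM in the lymph node, and the ER genes, at 2211, 2199, 2178 and 2604 CPM in the spleen and 2078, 2172, 2124 and 2552 CPM in the lymph node, were also highest in the deepest group. For each gate the compartment medians are therefore given both over all cells and with depth weighting, in which the undetected cells were reweighted over 10 bins of UMIs per cell to match the detected ones; the depth-weighted value carries no interval. UMIs per cell can differ between cell states as well as with capture, and the weighted value cannot tell these apart. No depth-weighted median over all genes is given beside it. The sign of a weighted value therefore does not by itself set the members apart from other genes.

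**Figure D2:**
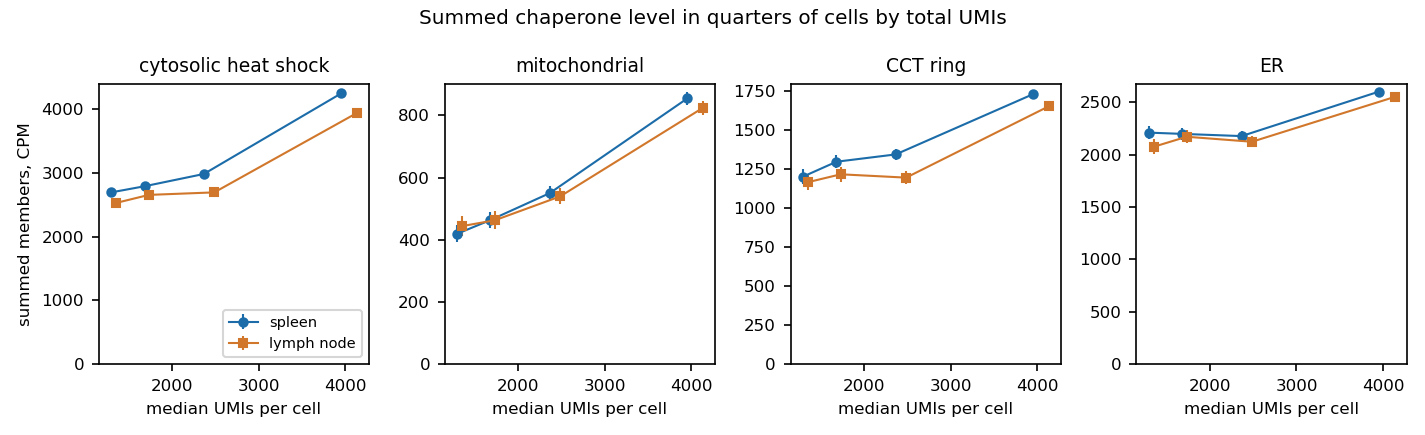
Summed CPM of each compartment in 4 equal groups of cells ordered by UMIs per cell, with 95% counting intervals, in the spleen and lymph node libraries. The mitochondrial and cytosolic sums lie highest in the deepest group of cells.

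A cell was gated as detected for a gene when it held at least 1 raw UMI of it. The gates cover Foxp3, the lineage factor of Treg cells; ICRE, a feature of the deposited gene list that no label explains; Il2ra, which encodes the sorted antigen CD25; Tnfrsf9 (4-1BB), a receptor induced by T cell activation; Klrg1, a receptor of effector Treg cells; and Ly6c1, one of the genes for the surface antigen Ly6C; a Myc gate, described last, was added after the data were seen. In the spleen 1239 cells were Foxp3-detected, 549 ICRE-detected, 2009 Il2ra-detected, 1134 Tnfrsf9-detected, 229 Klrg1-detected and 1373 Ly6c1-detected. In the lymph node the numbers were 1007, 379, 1240, 896, 223 and 923. A cell without a UMI is not a cell without the mRNA. Free RNA and doublets also give UMIs, so each gate gene was counted in cells with B cell markers as well. The shares below were taken at 1200 UMIs per cell, with exact 95% intervals for the 102 spleen and 94 lymph node cells with B cell markers. In the spleen, Foxp3 UMIs were in 10.2% of other and 1.96% of B-marker cells (0.238 to 6.90). ICRE was in 6.05% and 0.980% (0.0248 to 5.34). Il2ra was in 19.1% and 2.94% (0.611 to 8.36). Tnfrsf9 was in 11.3% and 0.980% (0.0248 to 5.34). Klrg1 was in 1.71% and 0.980% (0.0248 to 5.34). Ly6c1 UMIs were in 14.8% of other and 3.92% of B-marker cells (1.08 to 9.74). Myc UMIs were in 3.41% of other and 1.96% of B-marker cells (0.238 to 6.90). In the lymph node, Foxp3 UMIs were in 11.4% of other and 2.13% of B-marker cells (0.259 to 7.48). ICRE was in 5.86% and 2.13% (0.259 to 7.48). Il2ra was in 16.1% and 5.32% (1.75 to 11.98). Tnfrsf9 was in 12.2% and 4.26% (1.17 to 10.5). Klrg1 was in 2.48% and 2.13% (0.259 to 7.48). Ly6c1 UMIs were in 13.9% of other and 1.06% of B-marker cells (0.0269 to 5.79). Myc UMIs were in 2.88% of other and 5.32% of B-marker cells (1.75 to 11.98). The share in other cells thus lay inside the B-marker interval for Klrg1 and Myc in both tissues and for ICRE in the lymph node, and these gates did not stand above that background at this depth. The intervals are wide because few B-marker cells were counted, so they do not show how much of a gate is background. Before thinning, B-marker cells had a median of 2229 UMIs and other cells 1925 UMIs in the spleen, and 3092 and 2010 UMIs in the lymph node. The Klrg1 shares were then 3.53% of other cells and 2.24% of B-marker cells in the spleen and 4.63% and 4.35% in the lymph node. The ICRE shares were 8.49% and 3.73% in the spleen and 7.89% and 6.96% in the lymph node. Hspa1a, with 5 UMIs in the spleen and 1 in the lymph node, gives no interpretable ratio for any gate. Treg markers summed to 3038 CPM in Klrg1-detected and 1546 CPM in Klrg1-undetected spleen cells, and 2611 CPM in Klrg1-detected and 1479.7 CPM in Klrg1-undetected lymph node cells.

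Tnfrsf9-detected cells held more chaperone mRNA in every compartment, in both tissues. The mitochondrial chaperones summed to 975 CPM in Tnfrsf9-detected and 571 CPM in Tnfrsf9-undetected spleen cells (ratio 1.71, 1.64 to 1.78), and 933 CPM in Tnfrsf9-detected and 565 CPM in Tnfrsf9-undetected lymph node cells (ratio 1.65, 1.58 to 1.73). The cytosolic heat shock genes summed to 4745 CPM in Tnfrsf9-detected and 3151 CPM in Tnfrsf9-undetected spleen cells (ratio 1.51, 1.48 to 1.53), and 4323 CPM in Tnfrsf9-detected and 2944 CPM in Tnfrsf9-undetected lymph node cells (ratio 1.47, 1.44 to 1.499). The mitochondrial and cytosolic sums thus differed by around 1.5-fold or more, and the ER genes by less: they summed to 2929 CPM in Tnfrsf9-detected and 2226 CPM in Tnfrsf9-undetected spleen cells (ratio 1.32, 1.29 to 1.34), and 2829 CPM in Tnfrsf9-detected and 2178 CPM in Tnfrsf9-undetected lymph node cells (ratio 1.30, 1.27 to 1.33). The CCT ring summed to 1813 CPM in Tnfrsf9-detected and 1406 CPM in Tnfrsf9-undetected spleen cells (ratio 1.29, 1.255 to 1.33), and 1786 CPM in Tnfrsf9-detected and 1298 CPM in Tnfrsf9-undetected lymph node cells (ratio 1.38, 1.33 to 1.42). Of the members at or above 20 CPM, 14 of 38 passed 1.5-fold upwards in the spleen, where 8.14% of all genes did, and 12 of 37 in the lymph node, where 6.17% did; 0 passed it downwards, against 3.15% and 2.56% of all genes.

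Among the mitochondrial members, Hspd1 had 234 CPM in Tnfrsf9-detected and 120.4 CPM in Tnfrsf9-undetected spleen cells (ratio 1.95, 1.79 to 2.11), and 209 CPM in Tnfrsf9-detected and 104 CPM in Tnfrsf9-undetected lymph node cells (ratio 1.996, 1.81 to 2.20). Hspa9, the matrix Hsp70, and Hspe1 had ratios of 1.80 and 1.69 and of 1.63 and 1.57 in the spleen and lymph node. Among the cytosolic members, Hsp90aa1, the inducible Hsp90, had 516 CPM in Tnfrsf9-detected and 287 CPM in Tnfrsf9-undetected spleen cells (ratio 1.80, 1.70 to 1.90), and 537 CPM in Tnfrsf9-detected and 272 CPM in Tnfrsf9-undetected lymph node cells (ratio 1.97, 1.86 to 2.10), and Hsp90ab1 had 1567 CPM in Tnfrsf9-detected and 923 CPM in Tnfrsf9-undetected spleen cells (ratio 1.70, 1.64 to 1.75), and 1489 CPM in Tnfrsf9-detected and 877 CPM in Tnfrsf9-undetected lymph node cells (ratio 1.70, 1.64 to 1.76). Hspa8 stood at ratios of 1.43 and 1.31. The J-domain partner Dnajb1 and the factor Hsf1 did not follow: Dnajb1 had ratios of 0.898 and 0.932 and Hsf1 of 0.969 and 0.916. In the CCT ring, 7 of 7 subunits were higher in each tissue, Cct3 by ratios of 1.53 and 1.56, Tcp1 by 1.52 and 1.61 and Cct5 by 1.26 and 1.27.

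The ER members split. Pdia6, a disulfide isomerase, had 179 CPM in Tnfrsf9-detected and 89.4 CPM in Tnfrsf9-undetected spleen cells (ratio 2.002, 1.82 to 2.20), and 136 CPM in Tnfrsf9-detected and 84.3 CPM in Tnfrsf9-undetected lymph node cells (ratio 1.62, 1.43 to 1.82). Hspa5 had 329 CPM in Tnfrsf9-detected and 208 CPM in Tnfrsf9-undetected spleen cells (ratio 1.58, 1.48 to 1.69), and 300.3 CPM in Tnfrsf9-detected and 189 CPM in Tnfrsf9-undetected lymph node cells (ratio 1.59, 1.46 to 1.72), Calr had ratios of 1.55 and 1.61 and Sdf2l1, a partner of the ER J-domain protein Dnajb11, of 1.85 and 1.88. The ER J-domain proteins Dnajb9 and Dnajc3 did not share this: their ratios were 0.897 and 0.870 and 0.937 and 0.863, beside 1.40 and 1.28 for Dnajb11. Edem1 was level, with ratios of 0.982 and 1.01, and Xbp1 had 1.08 and 1.21. Of 19 ER members 16 were higher in each tissue. Of the members not named so far, Hspa4, an exchange factor of Hsp70, had ratios of 1.58 and 1.54, Trap1, the mitochondrial Hsp90, of 1.47 and 1.22, and the CCT subunits Cct2, Cct4, Cct7 and Cct8 of 1.29 and 1.41, 1.18 and 1.24, 1.22 and 1.42 and 1.2496 and 1.38. In the ER, P4hb, the classical disulfide isomerase, had 1.30 and 1.31, Creld2, a stress-induced ER protein, 1.59 and 1.26 and Herpud1, a scaffold of ER-associated degradation, 1.07 and 0.866.

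Tnfrsf9-detected cells were deeper, with medians of 2434 UMIs in Tnfrsf9-detected and 1869 UMIs in Tnfrsf9-undetected spleen cells, and 2459.5 UMIs in Tnfrsf9-detected and 1964 UMIs in Tnfrsf9-undetected lymph node cells. Among members at or above 20 CPM the median log2 ratio was 0.77 and 0.71 for mitochondrial genes in the spleen and lymph node, and 0.43 and 0.51 with depth weighting. The same pairs were 0.59 and 0.39, then 0.29 and 0.26, for cytosolic genes; 0.32 and 0.39, then 0.16 and 0.26, for ER genes; and 0.33 and 0.49, then 0.10 and 0.35, for the CCT ring. Over all genes the median was 0.092 and 0.076. For Hspd1 the depth-weighted log2 ratio was 0.44 and 0.65, for Hspa5 0.52 and 0.61 and for Sdf2l1 0.19 and 0.37. Cycling markers summed to 178 CPM in Tnfrsf9-detected and 73.7 CPM in Tnfrsf9-undetected spleen cells, and 245 CPM in Tnfrsf9-detected and 121 CPM in Tnfrsf9-undetected lymph node cells. With cycling cells left out, the unweighted medians in the spleen and lymph node were 0.82 and 0.71 for mitochondrial, 0.49 and 0.34 for cytosolic, 0.30 and 0.33 for ER and 0.37 and 0.45 for CCT genes.

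The ER and cytosolic sums were also higher in cells with more Tnfrsf9 UMIs. In cells thinned to 1200 UMIs and holding 0, 1, 2, or 3 and more Tnfrsf9 UMIs, the ER genes summed to 2156, 2628, 2803 and 3576 CPM in the spleen and to 2107, 2498, 2970 and 3872 CPM in the lymph node. The cytosolic heat shock genes summed to 2953, 3543, 4098 and 4186 CPM in the spleen and to 2726, 3274, 3652 and 4566 CPM in the lymph node. Both compartments were higher at each step, at 1 depth per cell, but the last cytosolic step in the spleen was small beside its counting error. The mitochondrial chaperones and the CCT ring were lower in the last class than in the one before it in the spleen, at 847 and 698 CPM for the mitochondrial and 1777 and 1463 CPM for the CCT genes, and highest in the last class in the lymph node, at 1042 and 1736 CPM. The last class held 86 spleen and 48 lymph node cells, so its sums are imprecise, and the steps were not tested.

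**Figure D3:**
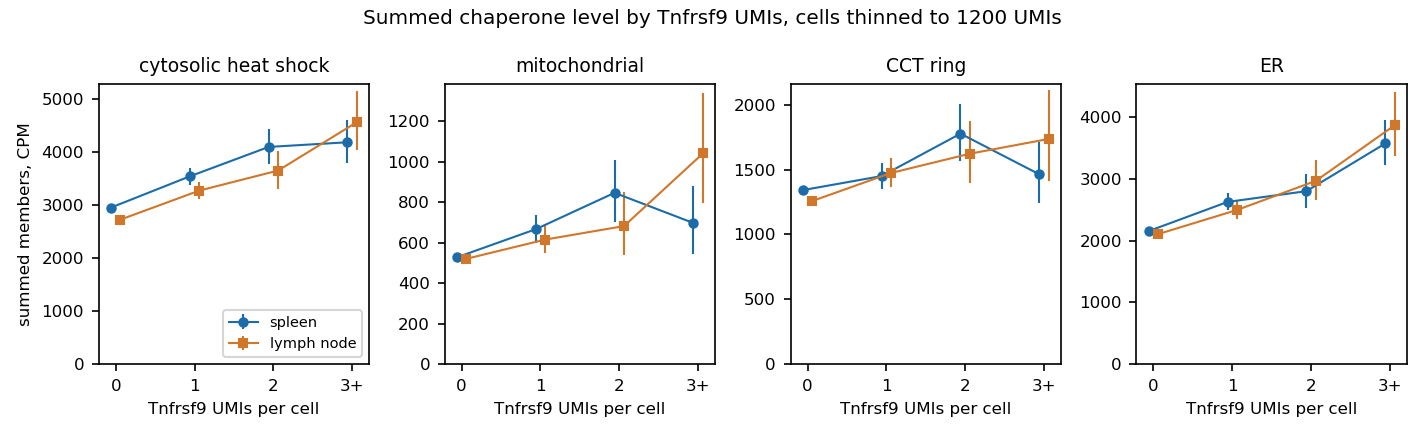
Summed CPM of each compartment, with 95% counting intervals, against the Tnfrsf9 UMIs of a cell (0, 1, 2, or 3 and more) after thinning to 1200 UMIs. ER and cytosolic sums are higher at each step in both libraries, though the last cytosolic step in the spleen is small beside its counting error.

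Klrg1-detected cells had more ER chaperone mRNA than Klrg1-undetected cells, and a lower sum of the mitochondrial chaperones. The ER genes summed to 3386 CPM in Klrg1-detected and 2323 CPM in Klrg1-undetected spleen cells (ratio 1.46, 1.41 to 1.51), and 3086 CPM in Klrg1-detected and 2278 CPM in Klrg1-undetected lymph node cells (ratio 1.35, 1.30 to 1.41). The mitochondrial chaperones summed to 579 CPM in Klrg1-detected and 669 CPM in Klrg1-undetected spleen cells (ratio 0.864, 0.794 to 0.939), and 532 CPM in Klrg1-detected and 663 CPM in Klrg1-undetected lymph node cells (ratio 0.802, 0.730 to 0.880). The ER and mitochondrial sums thus went opposite ways in both tissues. Of 19 ER members, 17 were higher in each tissue, and 9 in the spleen and 6 in the lymph node passed 1.5-fold, where 14.2% and 9.48% of all genes did; 0 of 38 and 0 of 37 members passed it downwards, where 8.89% and 6.53% of all genes did.

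GRP94, encoded by Hsp90b1 and needed for the folding of integrins, was one of the leading ER members: it had 275 CPM in Klrg1-detected and 150.3 CPM in Klrg1-undetected spleen cells (ratio 1.83, 1.61 to 2.07), and 253 CPM in Klrg1-detected and 145 CPM in Klrg1-undetected lymph node cells (ratio 1.75, 1.52 to 2.01). Sdf2l1 had 109 CPM in Klrg1-detected and 47.3 CPM in Klrg1-undetected spleen cells (ratio 2.30, 1.86 to 2.81), and 87.3 CPM in Klrg1-detected and 46.3 CPM in Klrg1-undetected lymph node cells (ratio 1.89, 1.47 to 2.39). The window of the first holds the ER stress element at 2 places and that of the second at none. Dnajb11, the partner of Sdf2l1, had ratios of 1.64 and 1.60 in the spleen and lymph node, the secreted ER protein Manf 1.60 and 1.59, the translocon-associated Ssr1 1.58 and 1.54 and Calr 1.45 and 1.41. Hspa5 had 1.33 and 1.19. The stress-activated Xbp1 was not among them, with 80.3 CPM in Klrg1-detected and 80.3 CPM in Klrg1-undetected spleen cells, and a ratio of 0.854 in the lymph node.

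Of the mitochondrial genes, Hspe1 had 302 CPM in Klrg1-detected and 407 CPM in Klrg1-undetected spleen cells (ratio 0.740, 0.658 to 0.830), and 324 CPM in Klrg1-detected and 427 CPM in Klrg1-undetected lymph node cells (ratio 0.758, 0.672 to 0.853). Hspd1, its partner, had ratios of 1.07 and 0.818. Of the cytosolic genes, Hspa8 had ratios of 1.36 and 1.17, but depth-weighted log2 ratios of 0.00983 and -0.056 that differed in sign between the tissues, Hsp90ab1 was near level at 0.976 and 0.987, and the CCT subunit Cct5 likewise at 0.975 and 1.05. Median log2 ratios in the spleen and lymph node were 0.54 and 0.43 for ER, 0.093 and 0.065 for CCT, 0.12 and -0.11 for cytosolic and 0.031 and -0.25 for mitochondrial genes, against 0.088 and 0.073 over all genes. Median depths were 3384 UMIs in Klrg1-detected and 1907 UMIs in Klrg1-undetected spleen cells, and 3209 UMIs in Klrg1-detected and 1991 UMIs in Klrg1-undetected lymph node cells. With depth weighting the ER medians were 0.37 and 0.34, and the medians of the other compartments were all below 0: -0.66 and -0.63 for mitochondrial, -0.23 and -0.20 for CCT and -0.13 and -0.32 for cytosolic genes. The all-gene medians above are unweighted and are not a reference for these values. Cycling markers summed to 529 CPM in Klrg1-detected and 69.5 CPM in Klrg1-undetected spleen cells, and 431 CPM in Klrg1-detected and 129.9 CPM in Klrg1-undetected lymph node cells. Without cycling cells the ER medians were 0.35 and 0.37. The mitochondrial median in the spleen was above 0 although the sum was lower; Hspe1 held most of the summed UMIs. In cells gated and thinned at 1200 UMIs the ER medians were 0.24 and 0.36, but Dnajb11 had a log2 ratio of -0.48 in the spleen and Hspa5 of -0.31 and Ssr1 of -0.000719 in the lymph node, so these single genes were not stable. Plasma cell markers, whose cells are rich in ER, summed to 8.81 CPM in Klrg1-detected and 14.0 CPM in Klrg1-undetected spleen cells, and 14.4 CPM in Klrg1-detected and 15.1 CPM in Klrg1-undetected lymph node cells.

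In ICRE-detected cells the mitochondrial chaperones were lower in both tissues. They summed to 533 CPM in ICRE-detected and 673 CPM in ICRE-undetected spleen cells (ratio 0.792, 0.727 to 0.861), and 456 CPM in ICRE-detected and 665 CPM in ICRE-undetected lymph node cells (ratio 0.686, 0.613 to 0.765). Hspd1 had 106 CPM in ICRE-detected and 149.5 CPM in ICRE-undetected spleen cells (ratio 0.709, 0.583 to 0.855), and 71.2 CPM in ICRE-detected and 133 CPM in ICRE-undetected lymph node cells (ratio 0.536, 0.399 to 0.706), and Hspe1 had ratios of 0.804 and 0.699. The constitutive cytosolic chaperones were lower as well, Hspa8 with ratios of 0.812 and 0.704 and Hsp90ab1 with 0.829 and 0.675. The CCT subunit Cct5 had ratios of 0.960 and 0.890. The median log2 ratio in the spleen and lymph node was -0.41 and -0.58 for mitochondrial genes, and -0.15 and -0.35 with depth weighting. For CCT genes it was -0.12 and -0.24, and 0.00525 and -0.10 with weighting. Cytosolic genes had 0.026 and -0.038, and 0.12 and -0.017 with weighting. ER genes had 0.028 and -0.034, and 0.062 and -0.00705 with weighting. The CCT median in the spleen thus changed sign with weighting, and it was 0.037 with a gate of at least 2 ICRE UMIs. In the lymph node the ICRE gate did not stand above the share in B-marker cells, which bears on every lymph node value here. Of the ICRE-detected cells, 44 of 549 in the spleen and 25 of 379 in the lymph node held a Foxp3 UMI. Among all cells, 1239 of 6543 in the spleen and 1007 of 4820 in the lymph node did. ICRE-detected cells were also shallower, and the part of depth in this was not tested. Whether ICRE-detected cells were Treg cells was not tested.

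The J-domain proteins Dnajb1, which activates cytosolic Hsp70, and Dnajb9, which acts on BiP in the ER, had ratios above 1. Dnajb1 had 90.5 CPM in ICRE-detected and 71.0 CPM in ICRE-undetected spleen cells (ratio 1.27, 1.03 to 1.57), and 109.6 CPM in ICRE-detected and 61.6 CPM in ICRE-undetected lymph node cells (ratio 1.78, 1.40 to 2.24). Dnajb9 had 44.8 CPM in ICRE-detected and 32.7 CPM in ICRE-undetected spleen cells (ratio 1.37, 1.001 to 1.84), and 61.7 CPM in ICRE-detected and 32.5 CPM in ICRE-undetected lymph node cells (ratio 1.90, 1.36 to 2.59). The other J-domain members had ratios of 1.11 and 1.20 for Dnaja1, 1.09 and 1.01 for Dnajb11 and 0.870 and 1.06 for Dnajc3. Xbp1 was higher in the spleen, with 136 CPM in ICRE-detected and 76.3 CPM in ICRE-undetected spleen cells (ratio 1.78, 1.49 to 2.12), and 79.5 CPM in ICRE-detected and 61.8 CPM in ICRE-undetected lymph node cells (ratio 1.29, 0.967 to 1.68), and the lymph node interval held 1. Sdf2l1 was lower, with 30.2 CPM in ICRE-detected and 52.5 CPM in ICRE-undetected spleen cells (ratio 0.574, 0.392 to 0.813), and 21.9 CPM in ICRE-detected and 50.7 CPM in ICRE-undetected lymph node cells (ratio 0.432, 0.246 to 0.708). Calr was level, with ratios of 1.02 and 1.04, while Hspa5 had 0.867 and 0.789 and Pdia3, the isomerase that works with calreticulin, 0.865 and 0.802.

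Members past 1.5-fold upwards were 1 of 38 in the spleen and 2 of 37 in the lymph node, where 3.66% and 6.49% of all genes passed, and downwards 2 and 3, where 3.82% and 6.87% did. These shares lie near the background. The median over all genes was 0.087 and 0.071. ICRE-detected cells were the shallower ones, with medians of 1663 UMIs in ICRE-detected and 1989.5 UMIs in ICRE-undetected spleen cells, and 1620 UMIs in ICRE-detected and 2104 UMIs in ICRE-undetected lymph node cells, and with depth weighting Dnajb1 had log2 ratios of 0.20 and 0.61 and Dnajb9 of 0.32 and 0.78. Immediate early genes, which respond to handling as well as to activation, summed to 2089 CPM in ICRE-detected and 1697 CPM in ICRE-undetected spleen cells, and 1949.7 CPM in ICRE-detected and 1678 CPM in ICRE-undetected lymph node cells, and cycling markers to 32.0 CPM in ICRE-detected and 102 CPM in ICRE-undetected spleen cells, and 20.6 CPM in ICRE-detected and 158 CPM in ICRE-undetected lymph node cells; their part in the differences was not tested. With a gate of at least 2 ICRE UMIs the log2 ratio of Dnajb1 in the spleen was -0.28, and that of Hspa5 in the lymph node was 0.25, both opposite to the values above.

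Sdf2l1 was the member with the highest ratios, among those at or above 20 CPM, in Foxp3-detected cells. Several other members changed sign with depth weighting. Sdf2l1 had 75.6 CPM in Foxp3-detected and 41.9 CPM in Foxp3-undetected spleen cells (ratio 1.80, 1.57 to 2.07), and 63.3 CPM in Foxp3-detected and 43.7 CPM in Foxp3-undetected lymph node cells (ratio 1.45, 1.23 to 1.71), with depth-weighted log2 ratios of 0.25 and 0.15. Hsp90b1 had 188 CPM in Foxp3-detected and 147 CPM in Foxp3-undetected spleen cells (ratio 1.28, 1.18 to 1.39), and 174 CPM in Foxp3-detected and 144 CPM in Foxp3-undetected lymph node cells (ratio 1.21, 1.10 to 1.33), and weighted log2 ratios of 0.17 and 0.12, but in the spleen its log2 ratio was -0.13 without the 5% deepest cells and -0.16 after thinning. Hspd1 had unweighted ratios of 1.15 and 1.02, but depth-weighted log2 ratios of -0.50 and -0.35. Hsp90ab1 likewise had ratios of 1.11 and 1.01 and depth-weighted log2 ratios of -0.30 and -0.27. Hspa8 had ratios of 1.24 and 1.13 and depth-weighted log2 ratios of -0.030 and -0.031. The sign of Hspd1, Hsp90ab1 and Hspa8 thus changed with depth weighting, whose values carry no interval. In the lymph node the unweighted ratios of Hspd1 and Hsp90ab1 were near level. The cause of these changes was not tested.

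The median log2 ratio in the spleen and lymph node was 0.13 and -0.041 for mitochondrial genes, and -0.38 and -0.33 with depth weighting. For CCT genes it was 0.15 and 0.042, and -0.14 and -0.15 with weighting. Cytosolic genes had 0.13 and 0.000504, and -0.085 and -0.13 with weighting. ER genes had 0.22 and 0.035, and 0.12 and 0.026 with weighting. After thinning the ER medians were -0.083 and -0.020. Over all genes the median was -0.013 and -0.015. In the spleen 1 of 38 members (Sdf2l1) passed 1.5-fold upwards and in the lymph node 0 of 37, where 2.93% and 1.51% of all genes did; 0 passed downwards, where 1.68% and 1.57% did. The calnexin gene Canx had ratios of 1.29 and 1.19, Pdia3 of 1.24 and 1.14, and Sec61b of 1.15 and 1.08, while Dnaja1, a cytosolic J-domain protein, stood at 0.933 and 0.915. In the spleen Canx had a log2 ratio of -0.092 and Dnaja1 of 0.036 after thinning, and in the lymph node Dnaja1 had a depth-weighted log2 ratio of 4.4e-05, so neither kept its direction. Hspa5, Calr and Cct5 were close to level, with ratios of 1.04 and 1.02, of 1.10 and 1.01 and of 1.06 and 1.03; their depth-weighted log2 ratios were -0.043 and -0.074, -0.056 and -0.12 and -0.14 and -0.095. Xbp1 had 71.2 CPM in Foxp3-detected and 83.7 CPM in Foxp3-undetected spleen cells (ratio 0.850, 0.748 to 0.964), and 63.0 CPM in Foxp3-detected and 62.7 CPM in Foxp3-undetected lymph node cells (ratio 1.005, 0.858 to 1.17), with depth-weighted log2 ratios of 0.042 and 0.20. Of the further pathway genes, Btf3, Naca and Ppib were on the higher side, with ratios of 1.16 and 1.09, of 1.12 and 1.08 and of 1.15 and 1.10, and Pfdn2, Ddit3 and Pfdn5 on the lower side, with 0.815 and 0.860, 0.750 and 0.756 and 0.862 and 0.931. Median depths were 2940 UMIs in Foxp3-detected and 1793 UMIs in Foxp3-undetected spleen cells, and 2849 UMIs in Foxp3-detected and 1846 UMIs in Foxp3-undetected lymph node cells, and cycling markers summed to 213 CPM in Foxp3-detected and 54.1 CPM in Foxp3-undetected spleen cells, and 271 CPM in Foxp3-detected and 105 CPM in Foxp3-undetected lymph node cells.

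In the Il2ra gate the clearest difference was in Xbp1, and the compartments differed little. Xbp1 had 98.1 CPM in Il2ra-detected and 70.6 CPM in Il2ra-undetected spleen cells (ratio 1.39, 1.245 to 1.55), and 77.1 CPM in Il2ra-detected and 57.0 CPM in Il2ra-undetected lymph node cells (ratio 1.35, 1.17 to 1.56), and depth-weighted log2 ratios of 0.56 and 0.49. Hsp90aa1 had ratios of 1.13 and 1.21, Hspd1 of 1.10 and 1.16, Hsp90b1 of 1.14 and 1.12 and Hspa8 of 1.09 and 1.06. With depth weighting their log2 ratios were -0.018 and 0.16 for Hsp90aa1, -0.10 and 0.085 for Hspd1, 0.089 and 0.091 for Hsp90b1 and -0.00697 and 0.00509 for Hspa8. After thinning they were -0.086 and -0.00529, -0.033 and -0.12, -0.014 and 0.022 and -0.067 and -0.22 in the same order. Each of these 4 genes thus changed sign with weighting or thinning in at least 1 tissue. Thinning also reset the gates and left out cells, and the cause of these changes was not tested. Hsp90ab1, Cct5, Hspa5 and Calr had ratios of 1.03 and 1.08, of 1.03 and 1.03, of 1.04 and 1.12 and of 1.01 and 1.06. The median log2 ratio in the spleen and lymph node was 0.078 and 0.094 for mitochondrial genes, and -0.11 and 0.015 with depth weighting. For CCT genes it was 0.047 and 0.038, and -0.058 and -0.023 with weighting. Cytosolic genes had 0.031 and 0.088, and -0.052 and 0.051 with weighting. ER genes had 0.059 and 0.080, and -0.015 and 0.086 with weighting. Over all genes it was 0.00469 and 0.00739 without weighting. Of the members 0 passed 1.5-fold, beside 0.456% and 0.615% of all genes upwards and 0.357% and 0.317% downwards. The further genes Dnajc2 and Btf3 had ratios of 1.22 and 1.245 and of 1.05 and 1.05. CD25 protein was the basis of the sort, so the mRNA may be unsampled or low in an Il2ra-undetected cell, and the gate does not mark CD25- cells. Cells with markers of another type were also kept, and whether these were CD25+ was not tested.

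Ly6c1-detected cells had less ER chaperone mRNA. The ER genes summed to 2128 CPM in Ly6c1-detected and 2453 CPM in Ly6c1-undetected spleen cells (ratio 0.868, 0.846 to 0.890), and 2164 CPM in Ly6c1-detected and 2370.5 CPM in Ly6c1-undetected lymph node cells (ratio 0.913, 0.885 to 0.941), and 18 of 19 in the spleen and 15 of 19 in the lymph node were lower. The share of all genes that were lower was not counted, and the all-gene median log2 ratio was below 0 too, at -0.092 and -0.064. Hspa5 had 192 CPM in Ly6c1-detected and 247 CPM in Ly6c1-undetected spleen cells (ratio 0.775, 0.711 to 0.844), and 179 CPM in Ly6c1-detected and 224 CPM in Ly6c1-undetected lymph node cells (ratio 0.797, 0.716 to 0.885). Sdf2l1 had ratios of 0.733 and 0.728, Pdia4 of 0.858 and 0.774, Pdia3 of 0.857 and 0.887 and Calr of 0.886 and 0.889. The median log2 ratio in the spleen and lymph node was -0.00979 and -0.18 for mitochondrial genes, and 0.085 and -0.10 with depth weighting. For CCT genes it was -0.042 and -0.077, and 0.015 and -0.00380 with weighting. Cytosolic genes had -0.063 and -0.11, and -0.00484 and -0.050 with weighting. ER genes had -0.21 and -0.090, and -0.15 and -0.11 with weighting. Over all genes it was -0.092 and -0.064 without weighting. In the lymph node the ER median thus lay close to that of all genes, and within cells that held a Foxp3 or ICRE UMI it was 0.00890, with Sdf2l1 at 0.10. Hsp90ab1 had ratios of 0.880 and 0.890, Hspa8 of 0.989 and 0.924, Hspd1 of 0.928 and 0.8003, Cct5 of 0.911 and 0.928 and Xbp1 of 0.931 and 0.942. Without the 5% deepest cells the log2 ratio of Hspa8 in the lymph node was 0.031, opposite in sign. Of the further genes, Ppp1r15a had ratios of 1.19 and 1.18, and Vcp, Fkbp5 and Txndc5 of 0.856 and 0.860, of 0.568 and 0.717 and of 0.715 and 0.736. Again 0 members passed 1.5-fold, beside 4.26% and 3.73% of all genes downwards and 0.337% and 0.437% upwards. Treg markers summed to 1151 CPM in Ly6c1-detected and 1760.3 CPM in Ly6c1-undetected spleen cells, and 1134 CPM in Ly6c1-detected and 1648 CPM in Ly6c1-undetected lymph node cells.

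**Figure D4:**
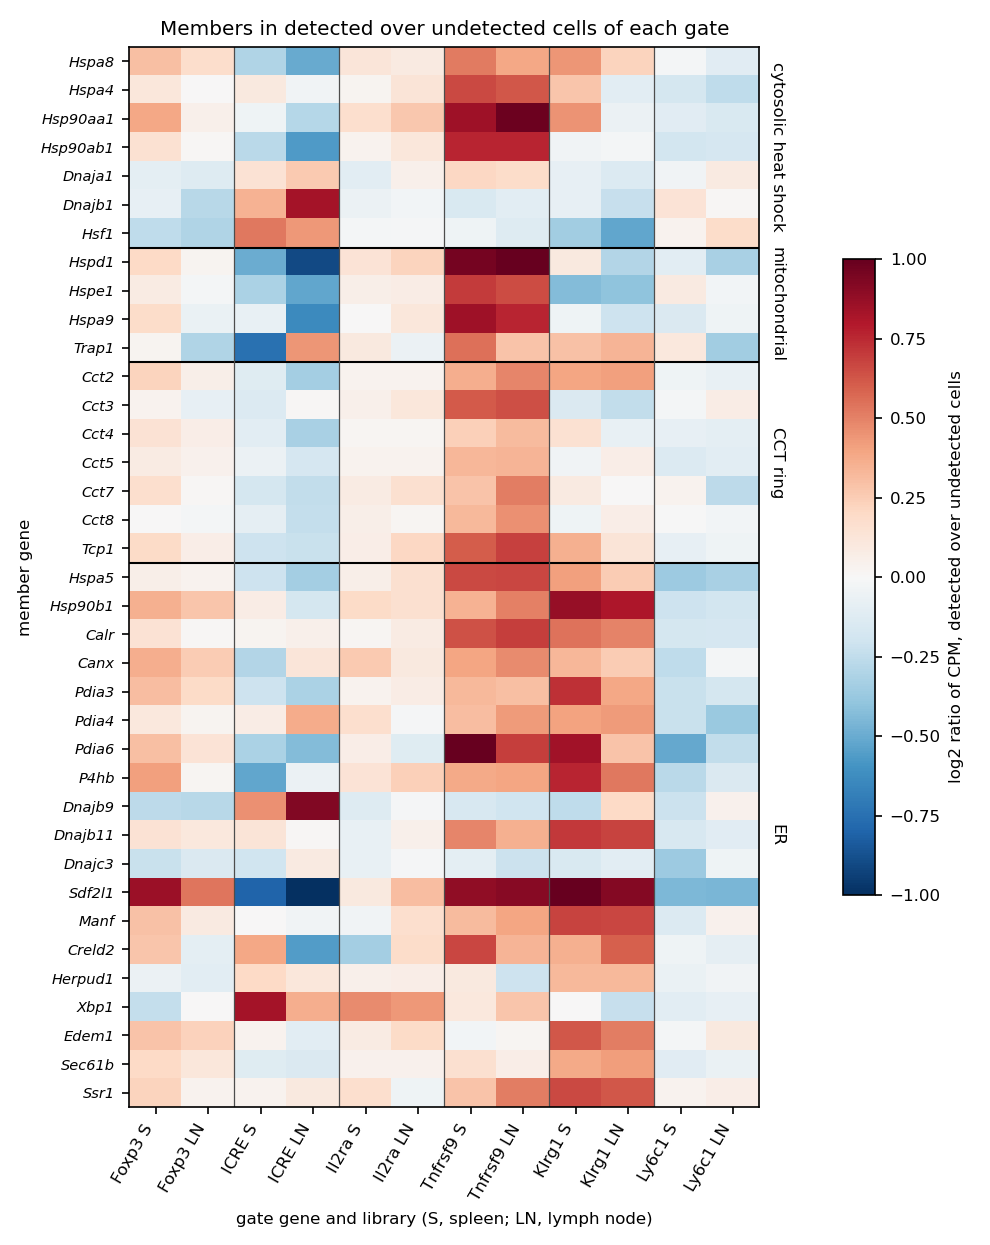
Log2 ratio of CPM, detected over undetected cells, for members at or above 20 CPM in both libraries and for the 6 gates in the spleen and lymph node; colours saturate at 1 and -1. Tnfrsf9 columns are higher across nearly all rows, and Klrg1 columns mainly in the ER rows.

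Cells detected for Klrg1 but not Ly6c1, set against cells detected for Ly6c1 but not Klrg1, gave the widest ER difference among the comparisons here. The Klrg1 gate did not stand above the share in B-marker cells in either tissue, which bears on these values too. The ER genes summed to 3373 CPM in Klrg1-only and 2078 CPM in Ly6c1-only spleen cells (ratio 1.62, 1.55 to 1.69), and 3084 CPM in Klrg1-only and 2136 CPM in Ly6c1-only lymph node cells (ratio 1.44, 1.38 to 1.52). All 19 ER members were higher in the spleen and 17 of 19 in the lymph node; 11 and 7 passed 1.5-fold, where 20.9% and 16.6% of all genes did. Of the other members, 0 of 19 in the spleen and 1 of 18 in the lymph node passed it upwards. Downwards 0 members passed in the spleen and 1 in the lymph node, where 9.02% and 7.16% did. Sdf2l1 had 112 CPM in Klrg1-only and 37.9 CPM in Ly6c1-only spleen cells (ratio 2.95, 2.24 to 3.87), and 84.6 CPM in Klrg1-only and 35.0 CPM in Ly6c1-only lymph node cells (ratio 2.41, 1.73 to 3.37), and Hsp90b1 had 268 CPM in Klrg1-only and 134 CPM in Ly6c1-only spleen cells (ratio 2.01, 1.71 to 2.35), and 261 CPM in Klrg1-only and 136 CPM in Ly6c1-only lymph node cells (ratio 1.92, 1.60 to 2.29). Pdia3 had ratios of 1.86 and 1.42, Dnajb11 of 1.71 and 1.67, Manf of 1.69 and 1.51, Hspa5 of 1.65 and 1.44 and Calr of 1.59 and 1.54, whereas Hspe1 was lower, at 0.703 and 0.780. Dnajb11 in the spleen had a log2 ratio of -0.41 after thinning, opposite in sign. Hspa8 had ratios of 1.34 and 1.26, Hsp90ab1 of 1.04 and 1.11, Hspd1 of 1.13 and 0.992, Cct5 of 1.08 and 1.14 and Xbp1 of 1.08 and 0.936, and Hsp90ab1 had depth-weighted log2 ratios of -0.53 and -0.24. Of the further genes, Fkbp5 had ratios of 4.79 and 3.17, Txndc5 of 4.11 and 2.70, Ppib of 1.67 and 1.53, Pfdn5 of 0.791 and 0.811 and Pfdn2 of 0.782 and 0.670. The median log2 ratio in the spleen and lymph node was 0.073 and -0.086 for mitochondrial genes, and -0.65 and -0.42 with depth weighting. For CCT genes it was 0.11 and 0.17, and -0.13 and -0.080 with weighting. Cytosolic genes had 0.24 and 0.079, and -0.060 and -0.041 with weighting. ER genes had 0.61 and 0.52, and 0.42 and 0.34 with weighting. Over all genes it was 0.17 and 0.13 without weighting. Median depths were 3367.5 UMIs in Klrg1-only and 1867 UMIs in Ly6c1-only spleen cells, and 3170.5 UMIs in Klrg1-only and 1792.5 UMIs in Ly6c1-only lymph node cells, and cycling markers summed to 531 CPM in Klrg1-only and 47.5 CPM in Ly6c1-only spleen cells, and 423 CPM in Klrg1-only and 100.2 CPM in Ly6c1-only lymph node cells.

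Cells detected for ICRE but not Foxp3 were set against cells detected for Foxp3 but not ICRE. In the lymph node the ICRE gate did not stand above the share in B-marker cells, which bears on the lymph node values. Sdf2l1 was the member farthest below 1 in both tissues, with 27.6 CPM in ICRE-only and 76.6 CPM in Foxp3-only spleen cells (ratio 0.360, 0.232 to 0.538), and 23.2 CPM in ICRE-only and 64.5 CPM in Foxp3-only lymph node cells (ratio 0.359, 0.198 to 0.605). Hspd1 had 104 CPM in ICRE-only and 163 CPM in Foxp3-only spleen cells (ratio 0.638, 0.511 to 0.788), and 68.0 CPM in ICRE-only and 132 CPM in Foxp3-only lymph node cells (ratio 0.515, 0.369 to 0.703), Hspa8 ratios of 0.679 and 0.664, Hsp90ab1 of 0.736 and 0.674 and Hspe1 of 0.769 and 0.721. Pdia3 had 0.732 and 0.746. Dnajb9, Dnajb1 and Dnaja1 had ratios above 1, of 1.58 and 2.18, of 1.36 and 2.10 and of 1.18 and 1.30. The other J-domain members, Dnajb11 and Dnajc3, had ratios of 1.03 and 1.03 and of 1.03 and 1.17, with intervals that held 1 in both tissues. Cct5, Hspa5 and Calr had ratios of 0.914 and 0.875, of 0.832 and 0.789 and of 0.888 and 1.02; Hspa5 had a log2 ratio of 0.085 in the spleen after thinning and of 0.34 in the lymph node with a gate of at least 2 UMIs, opposite in sign. Of the further genes, Pfdn5, Sec62 and Clpp had ratios of 1.24 and 1.19, of 1.249 and 1.30 and of 1.57 and 1.498, and Btf3, Naca and Ssr4 of 0.729 and 0.678, of 0.779 and 0.751 and of 0.821 and 0.672. Xbp1 had 141 CPM in ICRE-only and 70.0 CPM in Foxp3-only spleen cells (ratio 2.02, 1.63 to 2.48), and 75.7 CPM in ICRE-only and 61.9 CPM in Foxp3-only lymph node cells (ratio 1.22, 0.877 to 1.67), with depth-weighted log2 ratios of 0.67 and -0.26 that differed in sign between the tissues. The median log2 ratio in the spleen and lymph node was -0.51 and -0.56 for mitochondrial genes, and -0.085 and -0.10 with depth weighting. For CCT genes it was -0.28 and -0.26, and -0.035 and -0.14 with weighting. Cytosolic genes had -0.18 and -0.085, and 0.11 and 0.11 with weighting. ER genes had -0.22 and -0.032, and -0.061 and -0.054 with weighting. ICRE-only cells had medians of 1635 and 1605.5 UMIs and Foxp3-only cells of 2941 and 2859.5 UMIs. For Sdf2l1 the weighted log2 ratios were -0.66 and -0.84. Dnajb1 in the spleen had a log2 ratio of -0.43 with a gate of at least 2 UMIs, opposite in sign. Members past 1.5-fold were 3 of 38 and 4 of 37 upwards, where 11.0% and 11.6% of all genes passed, and 6 and 4 downwards, where 8.20% and 8.87% did.

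**Figure D5:**
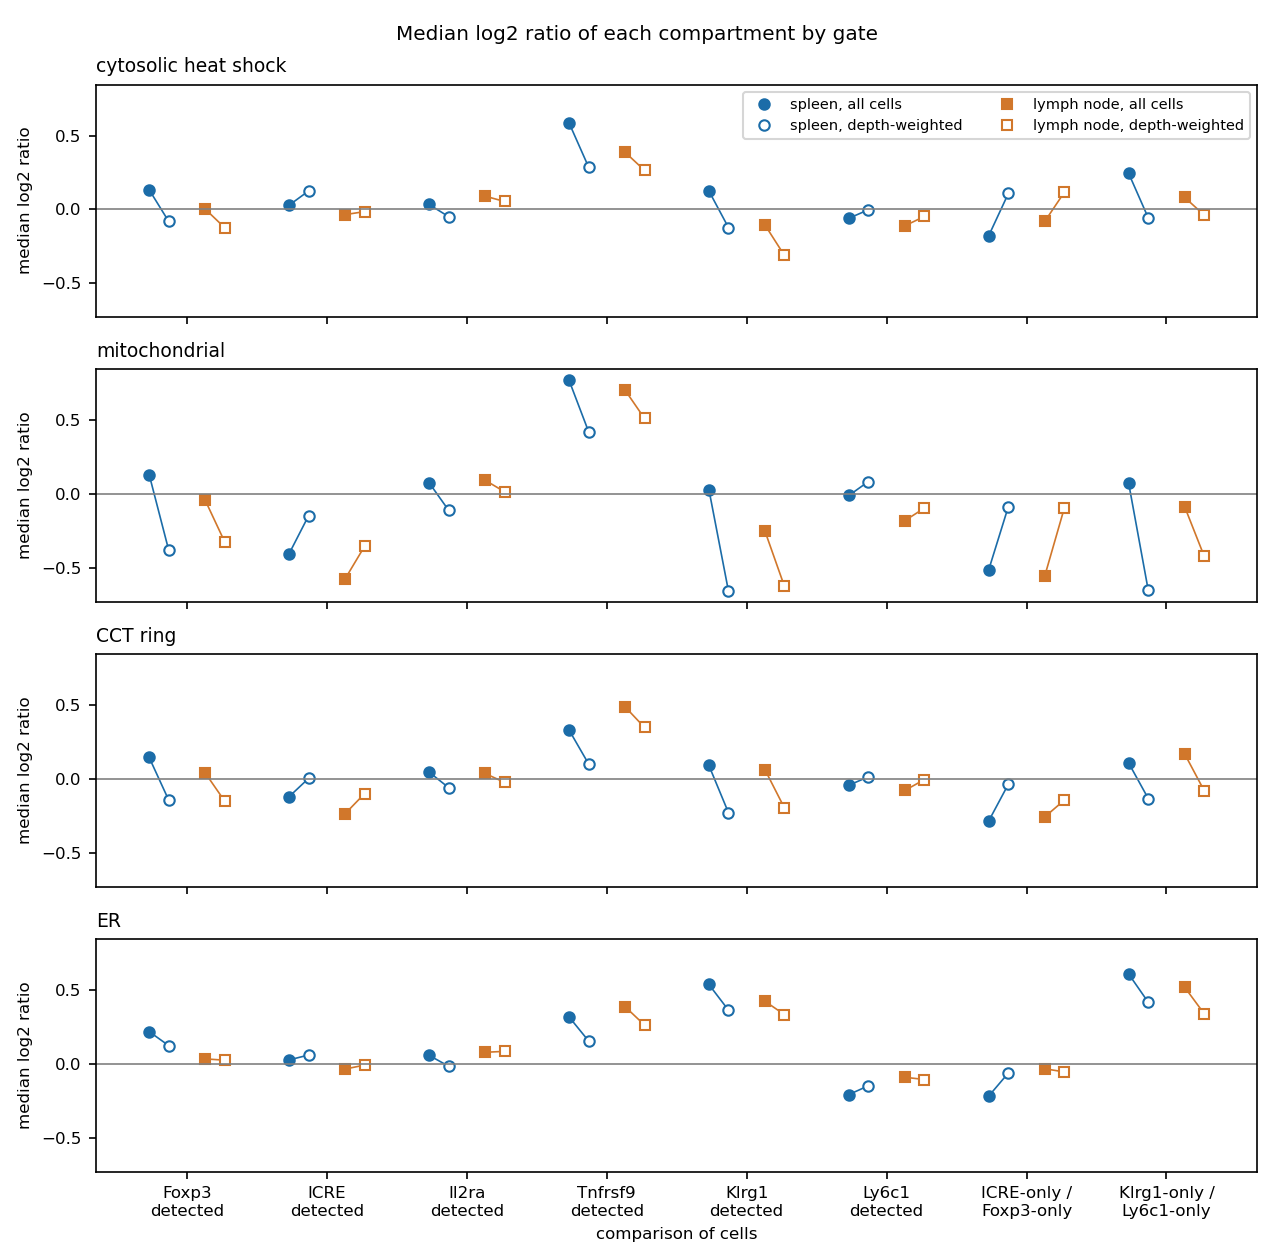
Median log2 ratio of each compartment's members at or above 20 CPM for the 6 gates, ICRE-only over Foxp3-only and Klrg1-only over Ly6c1-only cells, over all cells (filled) and depth-weighted (open), in the spleen and lymph node; the grey line marks 0. ER medians lie above the other compartments for Klrg1, while mitochondrial medians lie above the other compartments for Tnfrsf9 and below 0 with weighting for Foxp3 and Klrg1. No all-gene median is drawn.

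The mosaic of the mice concerns Myc, and a Myc gate, chosen after the data were seen, set the compartments apart in another order. Myc UMIs were held by 460 spleen and 294 lymph node cells. At 1200 UMIs per cell the share of other cells with a Myc UMI lay inside the interval of cells with B cell markers in both tissues. Those intervals rest on 2 of 102 spleen and 5 of 94 lymph node cells, and whether B-marker cells express Myc themselves was not tested. The comparison therefore cannot show how many Myc-detected cells express Myc. The mitochondrial chaperones summed to 1042 CPM in Myc-detected and 617 CPM in Myc-undetected spleen cells (ratio 1.69, 1.61 to 1.77), and 1181 CPM in Myc-detected and 589.8 CPM in Myc-undetected lymph node cells (ratio 2.002, 1.90 to 2.11). Hspd1 had 250.5 CPM in Myc-detected and 134 CPM in Myc-undetected spleen cells (ratio 1.87, 1.69 to 2.07), and 262 CPM in Myc-detected and 113 CPM in Myc-undetected lymph node cells (ratio 2.31, 2.06 to 2.60), Hspe1 ratios of 1.65 and 1.98 and Hspa9 of 1.64 and 1.85. Of the cytosolic genes Hsp90aa1 had ratios of 1.73 and 2.07 and Hsp90ab1 of 1.48 and 1.70, and the CCT subunit Cct3 had 1.48 and 1.49. Hspa8 had ratios of 1.32 and 1.36, Cct5 of 1.26 and 1.26, Hspa5 of 1.13 and 1.17, Calr of 1.20 and 1.15 and Xbp1 of 1.12 and 0.993. After thinning the log2 ratio of Cct5 in the spleen was -0.21, and those of Hspa5 were -0.075 and -0.32; Calr had -0.42 in the lymph node, and -0.18 in the spleen without the 5% deepest cells. All of these were opposite in sign to the values over all cells. Of the further genes, Cacybp, Fkbp4 and Btf3 had ratios of 1.45 and 1.70, of 1.37 and 1.44 and of 1.22 and 1.23, and Ppp1r15a, Sec62 and Pfdn5 of 0.548 and 0.741, of 0.822 and 0.763 and of 0.899 and 0.852. Median log2 ratios in the spleen and lymph node were 0.72 and 0.94 for mitochondrial, 0.45 and 0.45 for CCT, 0.44 and 0.28 for cytosolic and 0.17 and 0.14 for ER genes, against -0.067 and -0.091 over all genes. With depth weighting they were 0.39 and 0.47, 0.20 and 0.15, 0.16 and 0.12 and 0.021 and 0.044 in the same order. Without the 5% deepest cells the log2 ratio of Hspd1 in the spleen was -0.00876, so the spleen value depended on the deepest cells. Median depths were 3194 UMIs in Myc-detected and 1879 UMIs in Myc-undetected spleen cells, and 3277 UMIs in Myc-detected and 1970 UMIs in Myc-undetected lymph node cells, and cycling markers summed to 83.7 CPM in Myc-detected and 99.5 CPM in Myc-undetected spleen cells, and 306 CPM in Myc-detected and 132 CPM in Myc-undetected lymph node cells. Members past 1.5-fold upwards were 6 of 38 and 8 of 37, where 3.13% and 5.16% of all genes passed, and 0 downwards, where 3.98% and 8.81% did.

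The spleen excess over the lymph node was unequal between gates. In Klrg1-detected cells the cytosolic heat shock genes summed to 4126 CPM in the spleen and 3424 CPM in the lymph node (ratio 1.21, 1.15 to 1.26), and in Klrg1-undetected cells to 3472 CPM in the spleen and 3259 CPM in the lymph node (ratio 1.07, 1.05 to 1.08). In Foxp3-detected cells they summed to 3908 CPM in the spleen and 3389 CPM in the lymph node (ratio 1.15, 1.13 to 1.18), and in Foxp3-undetected cells to 3363 CPM in the spleen and 3225 CPM in the lymph node (ratio 1.04, 1.03 to 1.06). Over all members the ratio ran from 1.03 in Foxp3-undetected cells to 1.14 in Klrg1-detected cells. These are values of 1 library each, and the difference between gates was not tested.

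Among 94 further genes of the same pathways found in the files, 62 reached 20 CPM in the spleen and 60 in the lymph node. In Tnfrsf9-detected cells 50 of 62 and 53 of 60 were higher, with 8 and 4 past 1.5-fold upwards, where 8.14% and 6.17% of all genes passed, so the lymph node share lay at the background. The Hsp70 and Hsp90 co-chaperones St13 (Hip), Stip1 (Hop) and Cacybp had ratios of 1.61 and 1.61, of 1.66 and 1.62 and of 1.60 and 1.53, while Ppp1r15a (GADD34), which reverses the translational block of the stress response, had 0.720 and 0.780 and Pfdn5 0.908 and 0.915. In Klrg1-detected cells 19 of 21 further ER genes were higher in each tissue. The share of all genes that were higher was not counted for the Tnfrsf9 or the Klrg1 gate. The all-gene median log2 ratios of both gates, given above, were positive in each tissue. These counts of genes that were only higher therefore do not by themselves set the further genes apart from other genes. Txndc5, a disulfide isomerase, had 91.1 CPM in Klrg1-detected and 28.6 CPM in Klrg1-undetected spleen cells (ratio 3.19, 2.52 to 3.996), and 64.1 CPM in Klrg1-detected and 29.9 CPM in Klrg1-undetected lymph node cells (ratio 2.15, 1.60 to 2.84); Fkbp5, a glucocorticoid-induced partner of Hsp90, had ratios of 2.93 and 2.50 and Ppib (cyclophilin B) of 1.49 and 1.43. The mitochondrial protease gene Clpp and the prefoldin subunits Pfdn2 and Pfdn5, which hand actin and tubulin to the CCT ring, were lower there, with ratios of 0.641 and 0.697, of 0.745 and 0.703 and of 0.745 and 0.778. In ICRE-detected cells the nascent-chain complex subunits Naca and Btf3 had ratios of 0.840 and 0.803 and of 0.841 and 0.725, and Pfdn5 of 1.09 and 1.13. Between tissues Cacybp had 133 CPM in the spleen and 111 CPM in the lymph node (ratio 1.19, 1.12 to 1.28) and Fkbp5 21.7 CPM in the spleen and 28.3 CPM in the lymph node (ratio 0.765, 0.660 to 0.887); Stub1, Ppp1r15a, Ssr3 and Erp29 had ratios of 1.15, 1.15, 0.862 and 0.895.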

How the data were processed

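The deposited matrices hold UMI counts per gene and barcode, which the authors made with Cell Ranger 3.0.1 on mm10, per the submitters' processing notes, from single-cell 3′ libraries (V2 chemistry, per the labels' protocols); the values are raw counts, not normalised. Rows were matched by symbol; Cct6a and Mesdc2 were not analysed here. Gene positions came from a GRCm38 annotation and promoter sequences from RefSeq (GRCm38.p6). The members and all gene lists were chosen with earlier results of these data known.

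Barcodes under 500 genes, or with over 10% of UMIs from mitochondrially encoded genes, were left out. UMIs were summed over the cells of a group and divided by the summed total to give CPM, with exact Poisson intervals, and ratios with exact conditional intervals, both at the 95% level and covering counting error only. Genes with a mean of at least 20 CPM over the compared groups entered counts and medians. A gate required at least 1 raw UMI. For the depth-weighted ratio, cells were placed in 10 bins of UMIs per cell and the undetected cells of each bin weighted so that the bins held the same shares as in the detected cells. For values at equal depth, cells were thinned to 1200 UMIs, which left out 525 spleen and 252 lymph node cells. Gates were then set on the thinned counts. No doublet caller was run; an alternative leaves out the 5% deepest cells. With 1 library per tissue, no test was run and no adjusted p exists. Counts past 1.5-fold were set beside the share of all genes past it. Counts of members or further genes that were only higher or lower have no such share beside them. The all-gene median of the same comparison is their only reference.

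Each comparison names up to 6 members per direction whose counting interval leaves out 1 in the same direction in both libraries (between tissues, in the single comparison), ordered by the bound nearest 1, together with Hspa8, Hsp90ab1, Hspd1, Cct5, Hspa5, Calr and Xbp1 (and Hspa1a, whose 5 and 1 UMIs are given once and allow no ratio), and up to 3 further pathway genes per direction; other members are named where a group is described, and these were chosen after their values were seen. The interval code was tested on simulated data. Python 3.11.15, numpy 2.4.6, scipy 1.17.1, pandas 2.3.3 and matplotlib 3.10.9 were used.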

Additional observations from a re-analysis of the deposited data

How the results depend on the processing

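The alternatives changed the cell filter, the cells kept, the totals, the CPM limit, the gate, the depth per cell and the population. Leaving out cycling cells or barcodes shared by the libraries was chosen after seeing the data. Over all of them the Tnfrsf9 median of the members at or above 20 CPM ran from 0.21 to 0.54 in the spleen and from 0.27 to 0.60 in the lymph node. The Klrg1 ER median ran from 0.24 to 0.68 and from 0.28 to 0.48, the Il2ra ratio of Xbp1 from 0.45 to 0.71 and from 0.37 to 0.63, and the Xbp1 ratio between tissues from 0.33 to 0.37, all on the log2 scale. The Foxp3 and Il2ra medians had no stable direction. Of the medians over all members, 211 values stayed within the interval of the reported value (over the members for a median, over the counts for a gene), 53 lay outside it with the same sign or beside a value whose interval holds 0, and 11 changed the sign of a value whose interval leaves out 0. For compartment medians the numbers were 944, 134 and 22, and for single members 2535, 621 and 67. The cause of each change was not tested. No paired analysis was possible because each tissue has 1 library and cells carry no animal. Thinning to 1200 UMIs left 101 spleen and 111 lymph node cells without B cell markers that held a Klrg1 UMI, from 226 and 218, and 606 and 512 that held a Foxp3 UMI, from 1225 and 990. The changed values follow as log2 ratios, with a gate named by its gene, ICRE-only and Klrg1-only standing for those cells over Foxp3-only and Ly6c1-only cells, and "all" for the median of the members at or above 20 CPM.

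With at least 800 genes and at most 5% mitochondrial UMIs per cell, Foxp3 gave -0.035 for all in the lymph node. Il2ra gave 0.013 for all in the spleen. Without the 5% deepest cells, Foxp3 gave 0.00529 for all, -0.041 for the ER median, -0.13 for Hsp90b1, -0.094 for Calr in the spleen and -0.018 for all, -0.026 for the ER median in the lymph node. ICRE gave 0.051 for all in the lymph node. Il2ra gave 0.022 for all in the spleen and 0.027 for all, -0.063 for the mitochondrial median, -0.038 for Hspa8, -0.013 for Hsp90ab1, -0.13 for Hspd1 in the lymph node. Tnfrsf9 gave 0.24 for all in the spleen and 0.27 for all in the lymph node. Ly6c1 gave 0.031 for Hspa8 in the lymph node. ICRE-only gave -0.011 for all in the spleen and 0.042 for all in the lymph node. Myc gave -0.00876 for Hspd1, -0.29 for Hspa5, -0.18 for Calr in the spleen and -0.093 for Calr in the lymph node. Without cells that carried markers of another type, the tissue comparison gave 0.017 for Hspe1. Foxp3 gave -0.058 for all, -0.00265 for the ER median in the lymph node. Il2ra gave 0.024 for all in the spleen. ICRE-only gave -0.11 for all in the spleen. With totals that left out ribosomal, mitochondrially encoded and haemoglobin genes, Tnfrsf9 gave 0.30 for all in the spleen. Klrg1-only gave 0.061 for all, -0.032 for Hsp90ab1 in the lymph node. With log2 ratios centred on the median of all genes, Tnfrsf9 gave 0.28 for all in the spleen. Ly6c1 gave -0.018 for all in the spleen and -0.026 for all in the lymph node. Klrg1-only gave 0.11 for all in the lymph node. With equal weight per cell, Foxp3 gave -0.00474 for Calr in the spleen and -0.00624 for the ER median in the lymph node. Il2ra gave 0.040 for all, -0.00164 for the mitochondrial median, -0.00338 for Hspa8, -0.00605 for Hspd1 in the lymph node. Tnfrsf9 gave 0.33 for all in the lymph node. Ly6c1 gave 0.00763 for Hspa8 in the lymph node. ICRE-only gave -0.093 for all in the spleen. Myc gave -0.072 for Hspa5 in the spleen and -0.013 for Calr in the lymph node. With gates of at least 2 UMIs, Foxp3 gave 0.10 for all in the lymph node. ICRE gave 0.037 for the CCT ring median, -0.28 for Dnajb1 in the spleen and 0.25 for Hspa5 in the lymph node. Il2ra gave 0.094 for all in the spleen and 0.16 for all in the lymph node. Tnfrsf9 gave 0.60 for all in the lymph node. Ly6c1 gave -0.26 for all in the spleen. ICRE-only gave -0.43 for Dnajb1 in the spleen and 0.34 for Hspa5 in the lymph node. Klrg1-only gave 0.12 for all, -0.017 for Hsp90ab1 in the lymph node. With cells thinned to 1200 UMIs, Foxp3 gave -0.042 for all, -0.071 for the mitochondrial median, -0.021 for the CCT ring median, -0.083 for the ER median, -0.058 for Hsp90ab1, 0.036 for Dnaja1, -0.055 for Hspd1, -0.16 for Hsp90b1, -0.15 for Calr, -0.092 for Canx in the spleen and -0.034 for all, -0.020 for the ER median, -0.019 for Hspa8 in the lymph node. Il2ra gave -0.045 for all, -0.071 for the mitochondrial median, -0.067 for Hspa8, -0.086 for Hsp90aa1, -0.033 for Hspd1, -0.014 for Hsp90b1 in the spleen and 0.00609 for all, -0.037 for the mitochondrial median, -0.22 for Hspa8, -0.00529 for Hsp90aa1, -0.12 for Hspd1, -0.14 for Hsp90ab1 in the lymph node. Tnfrsf9 gave 0.25 for all in the spleen. Klrg1 gave -0.48 for Dnajb11 in the spleen and -0.31 for Hspa5, -0.000719 for Ssr1 in the lymph node. Ly6c1 gave -0.16 for all in the lymph node. ICRE-only gave -0.077 for all, 0.085 for Hspa5 in the spleen and 0.063 for the mitochondrial median in the lymph node. Klrg1-only gave 0.10 for all, -0.41 for Dnajb11 in the spleen. Myc gave -0.21 for Cct5, -0.075 for Hspa5 in the spleen and -0.32 for Hspa5, -0.42 for Calr in the lymph node. With depth weighting, Foxp3 gave -0.042 for all, -0.38 for the mitochondrial median, -0.14 for the CCT ring median, -0.030 for Hspa8, -0.30 for Hsp90ab1, -0.50 for Hspd1, -0.056 for Calr, 0.042 for Xbp1 in the spleen and -0.095 for all, -0.031 for Hspa8, 4.4e-05 for Dnaja1 in the lymph node. ICRE gave 0.00525 for the CCT ring median in the spleen. Il2ra gave -0.044 for all, -0.11 for the mitochondrial median, -0.058 for the CCT ring median, -0.00697 for Hspa8, -0.018 for Hsp90aa1, -0.10 for Hspd1 in the spleen and -0.023 for the CCT ring median in the lymph node. Tnfrsf9 gave 0.21 for all in the spleen and 0.31 for all in the lymph node. Klrg1 gave -0.00898 for all in the spleen and -0.056 for Hspa8 in the lymph node. ICRE-only gave -0.042 for all in the spleen. Klrg1-only gave 0.037 for all in the spleen and 0.14 for all, -0.24 for Hsp90ab1 in the lymph node. Myc gave -0.11 for Calr in the lymph node. Within cells that held a Foxp3 or ICRE UMI, the tissue comparison gave 0.15 for all, 0.00647 for Hspe1. Il2ra gave 0.11 for all in the spleen and 0.026 for all, -0.00756 for Hspa8, -0.11 for Hspd1 in the lymph node. Ly6c1 gave -0.026 for all, 0.00890 for the ER median, 0.10 for Sdf2l1 in the lymph node. Without cells with cycling markers, Foxp3 gave 0.056 for all, -0.042 for Hsp90b1, -0.000802 for Calr in the spleen and -0.037 for all, -0.030 for the ER median in the lymph node. Il2ra gave 0.00599 for all in the spleen and 0.040 for all in the lymph node. ICRE-only gave -0.076 for all in the spleen. Klrg1-only gave -0.00525 for Hsp90ab1 in the lymph node.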

Other observations

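Of 18 genes of the stress sensors and the integrated stress response, 5 reached 20 CPM: Atf6b, Atf4, Ddit3, Ppp1r15a and Mbtps1. Ddit3 (CHOP) and Ppp1r15a act late in the PERK branch, Atf4 is its transcription factor, and Mbtps1 encodes a protease that cuts ATF6. In ICRE-detected cells their median log2 ratio was 0.12 and 0.46 in the spleen and lymph node, against 0.087 and 0.071 over all genes. Ddit3 had 28.3 CPM in ICRE-detected and 29.8 CPM in ICRE-undetected spleen cells (ratio 0.9495, 0.638 to 1.37), and 45.2 CPM in ICRE-detected and 31.2 CPM in ICRE-undetected lymph node cells (ratio 1.45, 0.982 to 2.07). Ppp1r15a had 109 CPM in ICRE-detected and 99.6 CPM in ICRE-undetected spleen cells (ratio 1.09, 0.899 to 1.32), and 118 CPM in ICRE-detected and 85.7 CPM in ICRE-undetected lymph node cells (ratio 1.38, 1.09 to 1.71). In the lymph node Ppp1r15a was higher, while the Ddit3 interval held 1. In the spleen the intervals of both held 1. The lymph node ICRE gate did not stand above the share in B-marker cells, which bears on these values too.

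In Klrg1-detected cells, where the ER chaperones were higher, the median of these 5 genes was -0.32 and -0.13. Ddit3 had 18.6 CPM in Klrg1-detected and 30.5 CPM in Klrg1-undetected spleen cells (ratio 0.610, 0.364 to 0.964), and 31.0 CPM in Klrg1-detected and 32.1 CPM in Klrg1-undetected lymph node cells (ratio 0.964, 0.632 to 1.42), and Atf4 had ratios of 0.940 and 0.915. In Tnfrsf9-detected cells the median was 0.040 and 0.16, with Ddit3 at ratios of 1.14 and 1.12 and Atf4 at 1.03 and 1.01. In Ly6c1-detected cells Ppp1r15a had ratios of 1.19 and 1.18, while the ER chaperones were lower. The medians rest on 5 genes and were not depth-weighted, although Klrg1-detected and Tnfrsf9-detected cells were deeper. The lymph node Ddit3 interval in the Klrg1 gate held 1. No test across samples was possible for these values.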
